A study of Mus musculus with 12 samples.

Results

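The genes described here encode the degradative machinery of the lysosome. They are 37 genes chosen by name: 10 glycoside hydrolases, 5 sulfatases, 4 lipid hydrolases, 10 proteases, 2 activator proteins, 5 membrane proteins and the transcription factor Tfeb. They were chosen by gene name and not by a rule on measured values, though with earlier results of these data known. Each symbol was matched to its Entrez gene among the 26305 genes of the count table that carry an identifier. RNA was measured in mouse embryonic fibroblasts (MEFs), primary cells taken at embryonic day 13.5 from wild type male C57BL/6 embryos. All groups were grown in medium with 10% serum under 3% oxygen. The 4 groups, each of 3 libraries, were fibroblasts kept for 96 h or 240 h with 10 µM WM-2474, or for the same times with its vehicle DMSO. The labels call WM-2474 an inactive control; no active compound is analysed here. Whether the replicates came from separate embryos is not given in the labels, so p-values measure the spread between these libraries. Of the 37 genes, 36 had enough counts to be tested, and Ctss did not.

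The lysosome is an acidic compartment in which macromolecules from endocytosis and autophagy are broken down. Most of its hydrolases are made as precursors in the secretory pathway, tagged with mannose 6-phosphate and carried to the lysosome by receptors. Heavily glycosylated membrane proteins line the compartment, and a proton pump keeps it acidic. Tfeb and its relatives bind an E-box, CACGTG, within the CLEAR element of many lysosomal promoters, and the kinase complex mTORC1 holds them in the cytoplasm when nutrients are plentiful. Glb1 encodes the beta-galactosidase whose activity at raised pH is stained as a marker of senescent cells, a stain often used on cultured fibroblasts.

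To show where that E-box lies in promoters whose genes behaved differently over time, 6 upstream sequences are given as 250 bases before the annotated start, 5′ to 3′ on the gene's own strand, with each CACGTG in capitals. They are from RefSeq on GRCm38.p6. The Glb1 sequence is chr9:114400828-114401077, plus strand, the Lamp1 sequence chr8:13158911-13159160, plus strand, and the Gla sequence chrX:134601006-134601255, minus strand. The Mcoln1 sequence is chr8:3500269-3500518, plus strand, the Ctsk sequence chr3:95498960-95499209, plus strand, and the Hexa sequence chr9:59539290-59539539, plus strand.
Glb1: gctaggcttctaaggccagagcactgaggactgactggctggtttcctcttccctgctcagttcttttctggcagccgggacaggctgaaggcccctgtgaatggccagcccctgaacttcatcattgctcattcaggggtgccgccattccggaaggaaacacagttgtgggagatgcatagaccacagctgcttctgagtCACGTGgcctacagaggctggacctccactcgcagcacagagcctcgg
Lamp1: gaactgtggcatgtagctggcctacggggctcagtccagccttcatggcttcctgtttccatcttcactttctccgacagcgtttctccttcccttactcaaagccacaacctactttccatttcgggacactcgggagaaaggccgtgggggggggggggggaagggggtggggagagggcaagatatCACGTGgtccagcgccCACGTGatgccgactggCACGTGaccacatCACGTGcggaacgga
Gla: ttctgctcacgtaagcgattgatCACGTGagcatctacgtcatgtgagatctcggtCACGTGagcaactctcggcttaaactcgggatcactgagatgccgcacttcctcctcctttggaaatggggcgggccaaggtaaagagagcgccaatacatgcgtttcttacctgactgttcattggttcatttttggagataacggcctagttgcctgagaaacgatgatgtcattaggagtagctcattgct
Mcoln1: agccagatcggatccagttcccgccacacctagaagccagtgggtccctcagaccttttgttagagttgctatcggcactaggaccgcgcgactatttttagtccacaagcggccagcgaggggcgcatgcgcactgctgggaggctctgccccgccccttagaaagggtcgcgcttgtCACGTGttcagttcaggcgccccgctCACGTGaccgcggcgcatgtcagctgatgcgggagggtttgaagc
Ctsk: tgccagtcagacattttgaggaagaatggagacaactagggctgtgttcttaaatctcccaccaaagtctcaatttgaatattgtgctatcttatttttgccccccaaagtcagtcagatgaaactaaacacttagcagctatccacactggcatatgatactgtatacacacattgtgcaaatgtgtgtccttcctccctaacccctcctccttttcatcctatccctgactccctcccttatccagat
Hexa: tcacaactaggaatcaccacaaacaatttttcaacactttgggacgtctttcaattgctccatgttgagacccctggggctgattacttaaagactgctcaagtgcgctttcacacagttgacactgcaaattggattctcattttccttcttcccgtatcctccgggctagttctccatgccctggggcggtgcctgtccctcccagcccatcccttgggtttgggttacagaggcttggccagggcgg
Lamp1 had 4 copies, beginning 61, 45, 28 and 15 bases before the start. Gla had 2 copies, 227 and 194 bases before it, and Mcoln1 had 2, at 71 and 45 bases. Glb1 had 1 copy at 48 bases. Ctsk and Hexa had none in this window. Over windows from 250 bases before to 50 after the start, CACGTG was present in 13 of the 34 lysosomal genes with a window (38.2%), in 11.7% of 10391 tested genes and in 8.09% of 27025 genes of the reference table. The sequence is its own reverse complement, so both strands give the same matches. The longer TCACGTGA, which contains it, was in 4 lysosomal genes (11.8%) and 2.20% of tested genes. The full CLEAR palindrome, which contains both, was in 0 of the 34 and in 0.789% of tested genes. Galns, Asah1 and Ctsb had no window in the table.

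The libraries held 7313007 to 26019167 counts in genes, and a count of 3 corresponded to between 0.120 and 0.425 CPM (counts scaled to a common library size by TMM, which sets the typical gene equal between libraries). DMSO 240 h replicates 1 and 2 were the shallowest. Those 2 libraries also held 11.3 and 11.8 CPM over 11 B-lineage markers (leaving out Ebf1), against 0.598 to 2.66 in the other 10 libraries. The median change over time in DMSO, and counts of genes without overlap at 240 h, are therefore also given without them. The 10 fibroblast markers were all tested and summed to 31395 to 37316 CPM at 96 h and 48124 to 52723 CPM at 240 h. Of them 7 were called higher and 1, Pdgfra, lower over time in each treatment (TMM scaling, adjusted p under 0.05 by the edgeR test below). Of all tested genes 17.5% were called higher and 17.3% lower in DMSO, and 15.9% and 14.8% in WM-2474. Of 14 macrophage markers 2 passed the filter on low counts and 7 (Adgre1, C1qa, C1qb, C1qc, Tyrobp, Spi1 and Aif1) had at most 3 counts in every library. The macrophage markers summed to 5.21 to 6.73 CPM at 96 h and 3.5 to 4.67 CPM at 240 h. Sums of endothelial (2.59 to 8.37 CPM) and epithelial (1.27 to 5.85 CPM) markers were as low. In bulk RNA, a change in the number of cells of a type and a change in RNA per cell cannot be told apart.

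At baseline the lysosomal genes spanned more than 2 orders of magnitude, and the 4 best expressed were a protease, 2 membrane proteins and an activator protein. Scaled to exon length as well as library size (RPKM), Ctsd, the main aspartic protease of the lysosome, was highest in DMSO at 96 h at 524 ± 8.59 (SD, n = 3). It was followed by Lamp1, a major glycoprotein of the lysosomal membrane, at 489 ± 10.1. Psap, the precursor of the saposins that present sphingolipids to hydrolases, was at 428 ± 16.2 RPKM, and the tetraspanin Cd63 at 384 ± 9.41 RPKM. The cysteine proteases Ctsl and Ctsb were at 263 ± 23.7 and 171 ± 7.02 RPKM, with the acid ceramidase Asah1 between them at 195 ± 7.25 RPKM. The low end was formed by Gm2a, the cofactor of ganglioside breakdown, at 5.26 ± 0.152 RPKM and Tfeb at 2.18 ± 0.339 RPKM. By mean RPKM over all 12 libraries, 31 of the 36 tested genes lay above the median of all tested genes, and 14 lay in the top 10%. The 37 genes together took 0.863% to 0.922% of all counts in the 12 libraries.

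**Figure D1:**
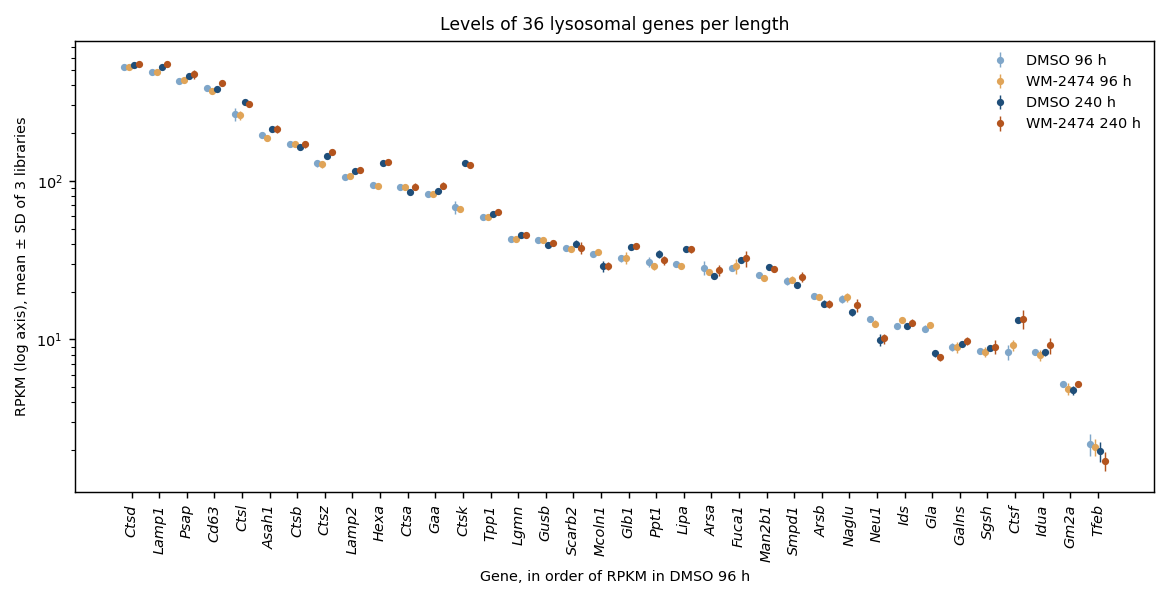
Mean RPKM (log axis) with SD of 3 libraries for the 36 tested lysosomal genes in the 4 groups, ordered by their level in DMSO at 96 h. Levels run from Ctsd at 524 RPKM to Tfeb at 2.18 RPKM; Ctsk, Hexa and Ctsf stand above, and Gla and Neu1 below, their 96 h points at 240 h.

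Most neighbours in the order of levels were separated beyond their spread. In DMSO at 96 h the libraries of 24 of the 36 neighbouring pairs among the 37 genes did not overlap and those of 12 did. Hexa and Ctsa were such an overlapping pair, at 94.1 ± 1.44 and 91.6 ± 3.62 RPKM. Each neighbouring pair also overlapped in the run from Glb1 (32.4 ± 1.56 RPKM) through Ppt1, Lipa and Arsa to Fuca1 (28.1 ± 1.18 RPKM), and in that from Galns (8.94 ± 0.509 RPKM) through Sgsh and Ctsf to Idua (8.33 ± 0.414 RPKM). For each of the 36 tested genes, the coefficient of variation between replicates was taken as its median over the 4 groups. These gene values had a median of 4.14% and ranged from 1.03% to 14.4%. The cathepsin genes showed the widest contrast: Ctss, a protease of antigen-presenting cells, had 22 counts in all 12 libraries, with 0 to 4 in each. Its neighbour on chromosome 3, Ctsk, whose annotated end lies 17398 bases before the start of Ctss, was at 68.4 ± 6.73 RPKM in DMSO at 96 h.

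Between 96 h and 240 h the lysosomal genes, like all tested genes, moved in both directions and mostly by small amounts. In DMSO 9 genes were higher and 6 lower at an adjusted p under 0.05 (edgeR quasi-likelihood test with Benjamini-Hochberg adjustment over 13499 genes), and scaling by library totals in place of TMM gave 4 higher and 12 lower. Under TMM 34.8% of all tested genes were called in this comparison, 17.5% higher and 17.3% lower, against 41.7%, 25.0% and 16.7% of the 36 lysosomal genes. In WM-2474, 13 genes were higher and 4 lower, with 5 and 10 under library totals. Under TMM 30.7% of all genes were called there, 15.9% higher and 14.8% lower. The share of the 36 lysosomal genes was 47.2%, with 36.1% higher and 11.1% lower. Library totals called 1190 of all 13499 genes higher and 4381 lower in DMSO, and 1097 and 4391 in WM-2474. Under library totals the median of all genes moved from -0.01 to -0.13 (log2) in DMSO and from -0.00 to -0.14 in WM-2474, so every change over time is given relative to the typical gene. The median lysosomal change was 0.06 in DMSO and 0.12 in WM-2474 (log2), and -0.06 and -0.02 under library totals. No lysosomal gene changed by more than 1 on the log2 scale in either treatment, a size passed by 4.62% and 4.41% of all genes. The median absolute log2 change was 0.14 for lysosomal genes and 0.17 for all genes in DMSO, and 0.16 for both in WM-2474. The libraries of the 2 times did not overlap for 21 genes in DMSO (58.3%, against 45.7% of all genes; 13 higher against 22.9% and 8 lower against 22.8%). In WM-2474 they did not overlap for 20 genes (55.6%, against 42.4%; 16 higher against 21.1% and 4 lower against 21.2%).

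The called genes were largely shared between the treatments, which use separate libraries at both times. All 9 genes called higher in DMSO were also called higher in WM-2474: Ctsk, Hexa, Ctsf, Lipa, Ctsl, Glb1, Man2b1, Ctsz and Lamp2. Called lower in both were 4 genes: Gla, Neu1, Mcoln1 and Arsb. Naglu and Arsa were called lower in DMSO alone, and Asah1, Cd63, Gaa and Lamp1 higher in WM-2474 alone; none of these 6 passed the test of the difference between treatments (smallest adjusted p = 0.977). In neither treatment did the remaining 17 pass. Over the 22 alternative settings tried for each comparison, 8 of the 15 calls in DMSO and 8 of the 17 in WM-2474 were kept throughout. Library totals alone removed 2 calls in DMSO (Glb1 and Ctsl) and 7 in WM-2474 (Asah1, Cd63, Ctsl, Gaa, Glb1, Lamp1 and Man2b1). Leaving out DMSO 240 h replicates 1 and 2 left 1 library in that group. The median lysosomal change in DMSO was then 0.07 (log2), against -0.01 for all genes.

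**Figure D2:**
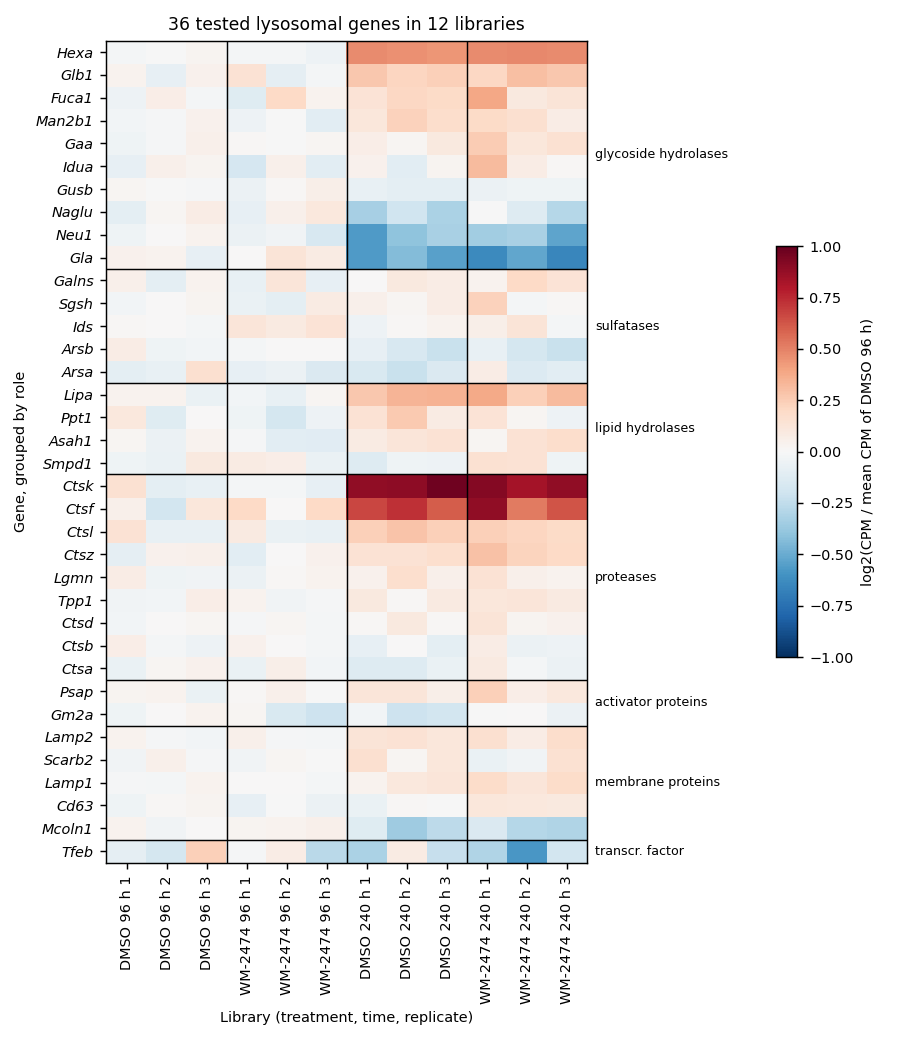
Each cell is the log2 ratio of 1 library's CPM to the mean CPM of the 3 DMSO 96 h libraries, for 36 tested lysosomal genes in rows by role and 12 libraries in columns by group (colour from -1 to 1). Ctsk, Ctsf and Hexa are above 0 and Gla and Neu1 below 0 in all 6 libraries of 240 h, also under library totals, which shift the 240 h columns down by about the -0.13 of the typical gene.

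Among the glycoside hydrolases, which cut sugars from glycoproteins and glycolipids, 3 of 10 rose and 3 fell in DMSO (1 and 4 under library totals), and 4 rose and 2 fell in WM-2474 (1 and 4). The shares of all genes were 17.5% higher and 17.3% lower in DMSO, and 15.9% and 14.8% in WM-2474. For this and the other roles below, those shares are under TMM. Under library totals 1190 of 13499 genes were higher and 4381 lower in DMSO, and 1097 and 4391 in WM-2474. Hexa, the alpha subunit of beta-hexosaminidase, rose in both treatments. Its CPM values were 173, 175 and 179 in DMSO at 96 h, 244, 241 and 238 in DMSO at 240 h, 173, 173 and 169 in WM-2474 at 96 h and 243, 245 and 243 in WM-2474 at 240 h. Every 240 h library lay above every 96 h library, and the log2 change was 0.46 ± 0.04 (adjusted p = 2.87e-09) in DMSO and 0.50 ± 0.04 (adjusted p = 5.12e-10) in WM-2474, a 1.37-fold and a 1.42-fold rise. Tmem202 on the opposite strand shares 12.8% of the exon bases of Hexa, and the strand setting of the counting is not given in the sources used here.

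Glb1, the source of the beta-galactosidase stain, was a moderately expressed gene with a small rise. It had CPM values of 78.1, 72.1 and 78.7 in DMSO at 96 h, 91.8, 88.6 and 90.1 in DMSO at 240 h, 84.2, 71.6 and 75.3 in WM-2474 at 96 h and 88, 94 and 92 in WM-2474 at 240 h. The groups did not overlap between the times in either treatment. The rise was 0.24 ± 0.06 (adjusted p = 0.00271) in DMSO and 0.24 ± 0.06 (adjusted p = 0.00248) in WM-2474 on the log2 scale, or 1.18-fold in both. Under library totals it was 0.12 (adjusted p = 0.133) in DMSO and 0.11 (adjusted p = 0.158) in WM-2474, and the call was lost. Tmppe, on the same strand, shares 5.49% of the exon bases of Glb1.

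Gla and Neu1 moved the other way. Gla, the alpha-galactosidase lost in Fabry disease, had CPM values of 36.5, 36.4 and 33.6 in DMSO at 96 h, 23.9, 26.2 and 24.3 in DMSO at 240 h, 35.5, 38.9 and 37.6 in WM-2474 at 96 h and 22.8, 24.8 and 22.5 in WM-2474 at 240 h. The 6 libraries of 240 h were all lower than the 6 of 96 h, with a log2 change of -0.52 ± 0.07 (adjusted p = 3.88e-06) in DMSO and -0.67 ± 0.08 (adjusted p = 1.11e-07) in WM-2474. Neu1, a sialidase that works in a complex with Glb1 and Ctsa, had CPM values of 50.1, 51.7 and 52.6 in DMSO at 96 h, 34.7, 38.8 and 41 in DMSO at 240 h, 49.3, 50.2 and 45.9 in WM-2474 at 96 h and 40.4, 41 and 35.7 in WM-2474 at 240 h. It fell by 0.41 ± 0.07 on the log2 scale in DMSO (adjusted p = 4.9e-05) and by 0.31 ± 0.07 in WM-2474 (adjusted p = 0.00147). The 3 genes of that complex thus had different directions over time, since Glb1 rose, Neu1 fell, and Ctsa had a log2 change of -0.10 ± 0.05 (adjusted p = 0.0918) in DMSO and 0.01 ± 0.05 (adjusted p = 0.871) in WM-2474. Under library totals Glb1 did not pass and Ctsa was called lower in both treatments, at -0.23 (adjusted p = 0.000426) and -0.12 (adjusted p = 0.0429).

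Of the other glycoside hydrolases, Naglu, Man2b1 and Gaa were called in at least 1 treatment. Naglu, which removes N-acetylglucosamine from heparan sulfate, was at 41.7, 45.4 and 47 CPM in DMSO at 96 h and at 35.5, 38.8 and 36 at 240 h, with no overlap, and fell by 0.28 ± 0.07 on the log2 scale (adjusted p = 0.00437). In WM-2474 its groups overlapped, with 42.3, 46.2 and 48.1 CPM at 96 h and 44.5, 40.8 and 36.8 at 240 h, and the change was -0.16 ± 0.07 (adjusted p = 0.113); without WM-2474 240 h replicate 1 it was -0.22 (adjusted p = 0.0389). Man2b1, a lysosomal alpha-mannosidase, rose by 0.17 ± 0.05 (adjusted p = 0.01) in DMSO and 0.19 ± 0.05 (adjusted p = 0.00472) in WM-2474. The DMSO call of Man2b1 was lost without DMSO 240 h replicate 2 (adjusted p = 0.0531). Gaa, the acid glucosidase that degrades glycogen, was 0.17 ± 0.04 (adjusted p = 0.0055) higher in WM-2474 and had a change of 0.06 ± 0.04 (adjusted p = 0.311) in DMSO. Fuca1, Idua and Gusb, which release fucose, iduronic acid and glucuronic acid, did not pass in either treatment. Fuca1 ranged over the 12 libraries from 65.1 to 92.7 CPM, Idua from 25.1 to 35 and Gusb from 96.6 to 108.

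**Figure D3:**
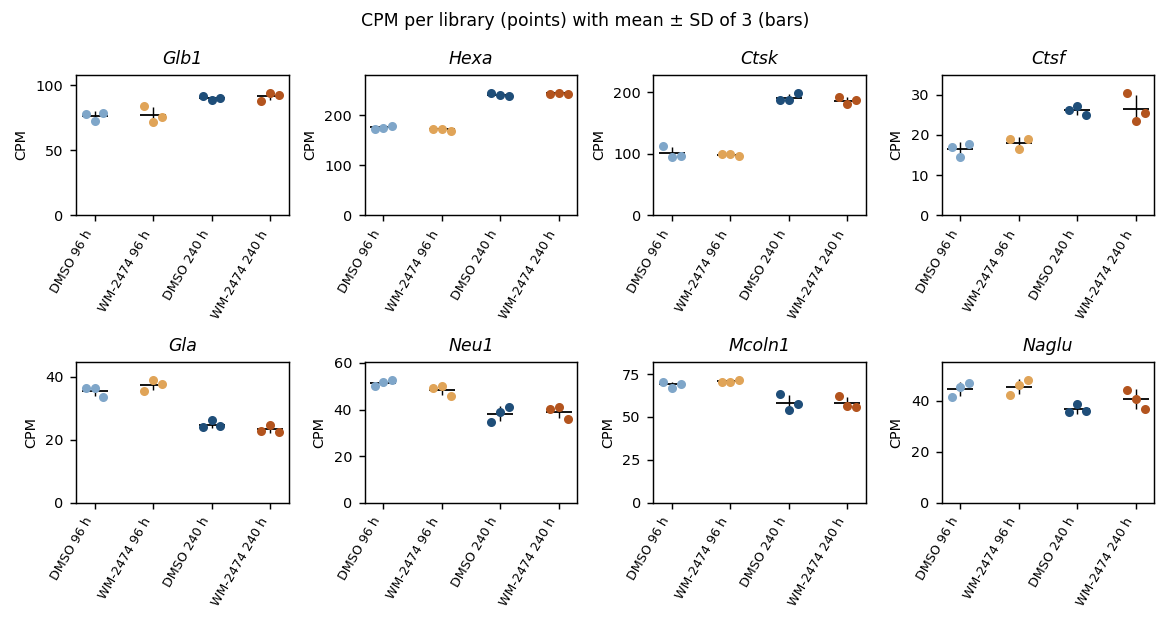
CPM in each of the 12 libraries (points) with mean and SD of 3 (bars), for 4 lysosomal genes higher and 4 lower at 240 h in DMSO; axes start at 0. Ctsk moves from 101 to 191 CPM in DMSO and Gla from 35.5 to 24.8 CPM, while under library totals the rise of Glb1 does not pass the test.

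The sulfatases, which strip sulfate from glycosaminoglycans and sulfatides, number 5 here. Of them 0 were called higher and 2 lower in DMSO (0 and 2 under library totals), and 0 higher and 1 lower in WM-2474 (0 and 2). The shares of all genes were 17.5% higher and 17.3% lower in DMSO, and 15.9% and 14.8% in WM-2474. Arsb, which acts on dermatan and chondroitin sulfate, was at 78.3, 72.1 and 73.1 CPM in DMSO at 96 h and 70.4, 66.7 and 64 at 240 h. The change was -0.16 ± 0.06 (adjusted p = 0.0285) in DMSO and -0.15 ± 0.06 (adjusted p = 0.0464) in WM-2474. Its DMSO call was lost when replicate 1 of DMSO at 96 h (adjusted p = 0.121), or replicate 2 (0.0609) or 3 (0.193) at 240 h, was left out, and its WM-2474 call without any of 7 libraries (adjusted p from 0.0509 to 0.176). Arsa, which desulfates sulfatide, had 1 high library at 96 h, with 92.7, 94 and 111 CPM in DMSO at 96 h and 89.2, 85.2 and 89.5 at 240 h. Its DMSO change was -0.17 ± 0.07 (adjusted p = 0.046), and -0.09 (adjusted p = 0.343) without that library, DMSO 96 h replicate 3. Leaving out any of 6 other libraries gave an adjusted p of 0.0501 to 0.137. Non-coding transcripts on the opposite strand share 32.3% of the exon bases of Arsb (Gm26527) and 18.8% of those of Arsa (C230037L18Rik). Galns, Ids and Sgsh, which remove sulfate from keratan sulfate and heparan sulfate, did not pass, with log2 changes of 0.06, 0.01 and 0.05 in DMSO and 0.14, -0.05 and 0.10 in WM-2474.

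Of the lipid hydrolases 1 of 4 rose in DMSO and 2 in WM-2474, with 0 lower (under library totals 1 higher and 1 lower in DMSO, 1 and 0 in WM-2474). The shares of all genes were 17.5% higher and 17.3% lower in DMSO, and 15.9% and 14.8% in WM-2474. Lipa, the acid lipase that frees cholesterol and fatty acids from lipoprotein lipids, had CPM values of 90.5, 90.5 and 84.2 in DMSO at 96 h, 106, 112 and 113 in DMSO at 240 h, 86.6, 84.1 and 89.4 in WM-2474 at 96 h and 115, 104 and 109.9 in WM-2474 at 240 h. The log2 change was 0.32 ± 0.05 (adjusted p = 3.13e-05) in DMSO and 0.34 ± 0.05 (adjusted p = 1.97e-05) in WM-2474. Asah1, which splits ceramide, was 0.19 ± 0.05 (adjusted p = 0.00282) higher in WM-2474. In DMSO its change of 0.12 ± 0.05 (adjusted p = 0.0595) did not pass, and did pass without WM-2474 240 h replicate 1 (adjusted p = 0.035). Ppt1, a palmitoyl-protein thioesterase, had 0.15 ± 0.06 (adjusted p = 0.0706) in DMSO and 0.13 ± 0.07 (adjusted p = 0.154) in WM-2474, and Smpd1, the acid sphingomyelinase, -0.07 ± 0.07 (adjusted p = 0.429) and 0.06 ± 0.07 (adjusted p = 0.531).

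The proteases held the 2 genes with the highest rise among the 36, and 4 of 9 tested rose with 0 lower in both treatments (under library totals 2 and 2 in DMSO, 3 and 2 in WM-2474). The shares of all genes were 17.5% higher and 17.3% lower in DMSO, and 15.9% and 14.8% in WM-2474. Ctsk, a collagen-degrading cysteine protease best known from osteoclasts and also made by fibroblasts, had CPM values of 113, 94.9 and 96.3 in DMSO at 96 h, 187, 188 and 199 in DMSO at 240 h, 99.8, 100.2 and 96 in WM-2474 at 96 h and 192, 181 and 187 in WM-2474 at 240 h. The 240 h libraries did not overlap the 96 h libraries, and the log2 change was 0.92 ± 0.06 (adjusted p = 1.81e-12) in DMSO and 0.92 ± 0.06 (adjusted p = 2.17e-12) in WM-2474, a 1.89-fold rise in both. Under library totals it was 0.79 (adjusted p = 4.24e-11) and 0.78 (adjusted p = 6.48e-11). Among 7 osteoclast markers the sum went from 47.6 to 52.5 CPM at 96 h to 74.2 to 91.7 CPM at 240 h, most of it Itgb3. Itgb3 and Tnfrsf11a rose, by 0.69 ± 0.09 and 0.77 ± 0.10 in DMSO on the log2 scale. Dcstamp was at 0 in all 12 libraries and Calcr and Ocstamp had at most 3 counts in each.

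Ctsf, a cysteine protease of broad tissue distribution, rose from a level far below that of Ctsk. It had CPM values of 17.1, 14.5 and 17.8 in DMSO at 96 h, 26.2, 27.3 and 25.1 in DMSO at 240 h, 18.9, 16.5 and 19 in WM-2474 at 96 h and 30.5, 23.5 and 25.4 in WM-2474 at 240 h. The times did not overlap within either treatment, and the change was 0.65 ± 0.10 (adjusted p = 1.22e-05) in DMSO and 0.54 ± 0.10 (adjusted p = 0.000155) in WM-2474. WM-2474 240 h replicate 1 was the highest of its group. Ctsl, a cysteine endopeptidase, had CPM values of 573, 492 and 493 in DMSO at 96 h, 612, 632 and 614 in DMSO at 240 h, 552, 497 and 492 in WM-2474 at 96 h and 613, 603 and 593 in WM-2474 at 240 h. It rose by 0.25 ± 0.05 (adjusted p = 0.000645) in DMSO and 0.23 ± 0.05 (adjusted p = 0.0017) in WM-2474; under library totals the change was 0.13 (adjusted p = 0.0668) and 0.10 (adjusted p = 0.178). Of its exon bases 26.8% are shared with the antisense gene Gm47123. Ctsz, a carboxypeptidase, rose by 0.15 ± 0.05 (adjusted p = 0.0178) in DMSO and 0.26 ± 0.05 (adjusted p = 0.000227) in WM-2474. The DMSO call of Ctsz was lost without DMSO 96 h replicate 1 (adjusted p = 0.112) or DMSO 240 h replicate 3 (0.0758).

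Ctsd, Ctsb, Lgmn and Tpp1 did not pass in either treatment (under library totals Ctsb was called lower in both, at -0.18 (adjusted p = 0.00288) and -0.15 (adjusted p = 0.0122)). Ctsd ranged from 1006 to 1117 CPM over all libraries, with a log2 change of 0.04 ± 0.04 in DMSO (95% interval -0.05 to 0.13) and 0.07 ± 0.04 in WM-2474 (-0.02 to 0.16). The predicted gene Gm49369, on the same strand, shares 34.4% of the exon bases of Ctsd, so its counts may be split. Ctsb ranged from 757 to 853 CPM with -0.06 ± 0.05 (95% interval -0.16 to 0.03) and -0.02 ± 0.05 (-0.11 to 0.08). The asparaginyl protease Lgmn, which matures other cathepsins, had 0.08 ± 0.06 and 0.08 ± 0.06, and the tripeptidyl peptidase Tpp1 0.07 ± 0.05 and 0.11 ± 0.05, all in DMSO and WM-2474 in turn.

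**Figure D4:**
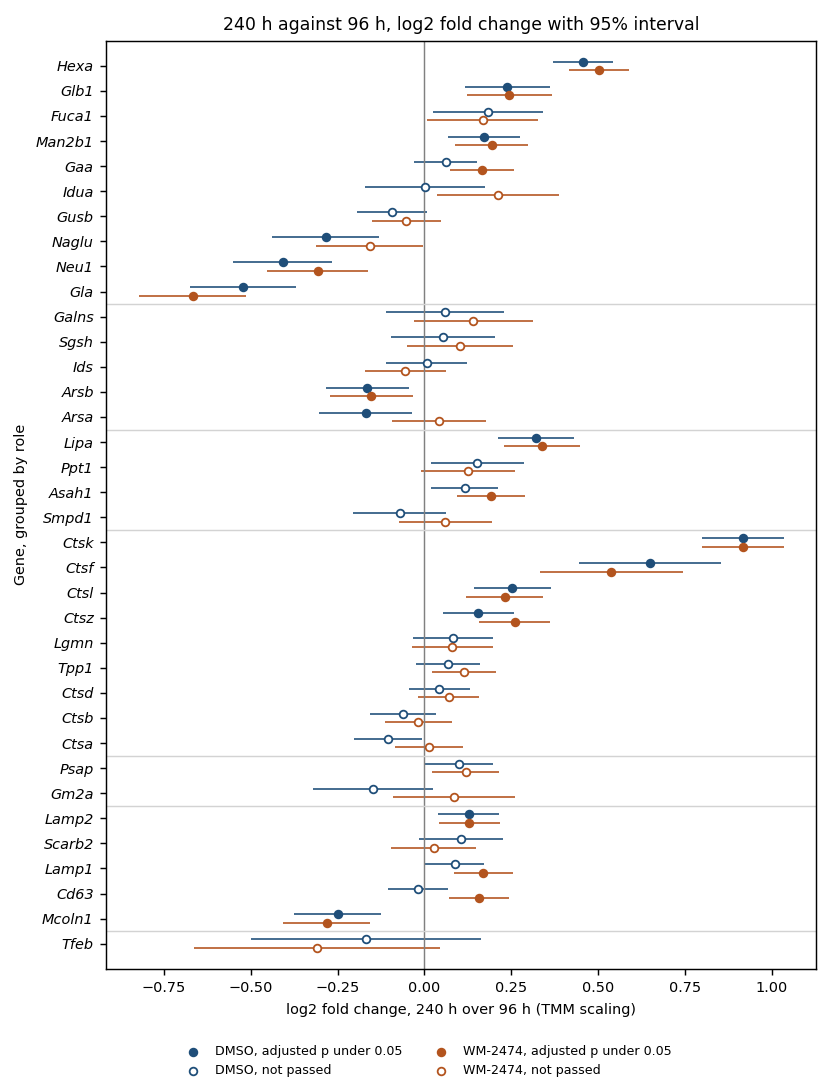
Log2 fold change from 96 h to 240 h with its 95% interval for 36 lysosomal genes, DMSO in blue and WM-2474 in orange, filled where the adjusted p is under 0.05 (TMM scaling). Ctsk (0.92 and 0.92) lies at one end and Gla (-0.52 and -0.67) at the other. Library totals shift all points by about -0.13. Then 4 higher and 12 lower genes pass in DMSO, against 1190 and 4381 of all 13499 genes. In WM-2474 5 and 10 pass, against 1097 and 4391.

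Neither activator protein passed in either treatment (under library totals Gm2a fell in DMSO, at -0.27 (adjusted p = 0.0137)). Psap had a log2 change of 0.10 ± 0.05 (adjusted p = 0.105) in DMSO and 0.12 ± 0.05 (adjusted p = 0.0578) in WM-2474. Gm2a had -0.15 ± 0.08 (adjusted p = 0.183) and 0.09 ± 0.09 (adjusted p = 0.495).

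Of the 5 membrane proteins 1 rose and 1 fell in DMSO (0 and 2 under library totals), and 3 rose and 1 fell in WM-2474 (0 and 1). The shares of all genes were 17.5% higher and 17.3% lower in DMSO, and 15.9% and 14.8% in WM-2474. Mcoln1, the channel that releases calcium from the lysosome, fell. Its CPM values were 70.5, 67.1 and 69.3 in DMSO at 96 h, 63.3, 53.8 and 57.5 in DMSO at 240 h, 70.3, 70.6 and 71.5 in WM-2474 at 96 h and 62.3, 56.5 and 56.1 in WM-2474 at 240 h. No 240 h library reached the lowest 96 h library, and the change was -0.25 ± 0.06 (adjusted p = 0.00219) in DMSO and -0.28 ± 0.06 (adjusted p = 0.000825) in WM-2474. Lamp2, which serves in fusion with autophagosomes and in chaperone-mediated autophagy, had 0.13 ± 0.04 (adjusted p = 0.0215) in DMSO and 0.13 ± 0.04 (adjusted p = 0.0224) in WM-2474. The DMSO call of Lamp2 was lost when replicate 2 or 3 of DMSO at 96 h, or replicate 1 or 2 at 240 h, was left out (adjusted p from 0.0535 to 0.0882), and the WM-2474 call likewise for replicate 2 or 3 at 96 h and 1 or 3 at 240 h (0.0522 to 0.101). Lamp1 had CPM values of 1096, 1086 and 1129 in DMSO at 96 h, 1131, 1188 and 1199 in DMSO at 240 h, 1107, 1105 and 1087 in WM-2474 at 96 h and 1253, 1203 and 1252 in WM-2474 at 240 h. It rose by 0.17 ± 0.04 (adjusted p = 0.00259) in WM-2474, and its change in DMSO was 0.09 ± 0.04 (adjusted p = 0.104).

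Cd63, a tetraspanin of late endosomes and exosomes, had CPM values of 388, 403 and 406 in DMSO at 96 h, 382, 403 and 397 in DMSO at 240 h, 376, 397 and 382 in WM-2474 at 96 h and 431, 429 and 427 in WM-2474 at 240 h. The 3 WM-2474 240 h libraries were the highest of the 12, and the other 9 overlapped. Its change over time was -0.02 ± 0.04 (adjusted p = 0.786) in DMSO and 0.16 ± 0.04 (adjusted p = 0.00527) in WM-2474, and the difference of these changes was 0.17 ± 0.06 (adjusted p = 0.977). Of the 31-base words of Cd63 transcripts 15.9% also occur in another gene, most of them in a Cd63 pseudogene, so its counts may be split. Scarb2, the receptor that carries glucocerebrosidase to the lysosome, did not pass, with 0.10 ± 0.06 in DMSO and 0.03 ± 0.06 in WM-2474.

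Tfeb itself was expressed at a low level and did not pass in either treatment (under library totals it was lower in WM-2474, at -0.44 (adjusted p = 0.0416)). It had CPM values of 5.78, 5.45 and 7.25 in DMSO at 96 h, 4.96, 6.52 and 5.25 in DMSO at 240 h, 6.12, 6.47 and 5.12 in WM-2474 at 96 h and 4.99, 4.11 and 5.43 in WM-2474 at 240 h. The groups overlapped, and the changes of -0.17 ± 0.16 in DMSO and -0.31 ± 0.17 in WM-2474 had 95% intervals of -0.50 to 0.16 and -0.66 to 0.04. Beside the next counts, 17.5% of all genes were called higher and 17.3% lower in DMSO, and 15.9% and 14.8% in WM-2474. Of the 13 genes with CACGTG in the promoter window, 3 rose and 4 fell in DMSO and 5 rose and 2 fell in WM-2474. Of the 20 tested genes with a window but no CACGTG, 6 rose and 2 fell in DMSO and 7 rose and 2 fell in WM-2474. These counts describe letters in a window and say nothing of Tfeb binding.

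The rest of the pathway also moved in both directions. Beside the counts that follow, of all genes 17.5% were called higher and 17.3% lower in DMSO, and 15.9% and 14.8% in WM-2474. Those shares are under TMM. Beside the counts under library totals, 1190 of 13499 genes were called higher and 4381 lower in DMSO, and 1097 and 4391 in WM-2474. Of 25 other lysosomal hydrolases, 10 rose and 3 fell in each treatment (5 and 7 in DMSO, 5 and 6 in WM-2474 under library totals), with a median of 0.14 in both (0.02 in DMSO and 0.00 in WM-2474 under library totals). Aga, which cleaves the link between asparagine and sugars, rose by 0.56 ± 0.06 in DMSO and 0.61 ± 0.06 in WM-2474. Scpep1, a serine carboxypeptidase, rose by 0.48 ± 0.05 and 0.52 ± 0.05. Galc, the galactosylceramidase lost in Krabbe disease, fell by 0.44 ± 0.08 and 0.47 ± 0.08 on the log2 scale. Dnase2a, an acid DNase, had -0.32 ± 0.11 and -0.43 ± 0.11, both past the test. These 4 calls were kept under library totals.

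Among 24 other membrane and transport proteins, 3 rose and 5 fell in DMSO and 3 rose and 4 fell in WM-2474 (2 and 8, and 2 and 7, under library totals). Sidt2 and Laptm4a rose, by 0.37 ± 0.05 and 0.35 ± 0.05 in DMSO and 0.38 ± 0.05 and 0.36 ± 0.05 in WM-2474. Gpnmb, a transmembrane glycoprotein, fell by 0.64 ± 0.07 on the log2 scale in DMSO and by 0.64 ± 0.07 in WM-2474. Of 17 subunits of the proton pump, 3 rose and 2 fell in DMSO and 3 rose and 1 fell in WM-2474 (0 and 7, and 0 and 8, under library totals). The rises of Atp6ap1 (0.19 ± 0.04 in DMSO) and Atp6v1h (0.19 ± 0.06) were lost under library totals, and the fall of Atp6v0a1 (-0.23 ± 0.06) was kept.

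Of 24 sorting genes 2 rose and 6 fell in DMSO and 3 rose and 2 fell in WM-2474 (2 and 10, and 1 and 13, under library totals). The mannose 6-phosphate receptor genes are Igf2r and M6pr. Igf2r rose by 0.29 ± 0.04 in DMSO and 0.26 ± 0.04 in WM-2474, and M6pr by 0.33 ± 0.05 and 0.23 ± 0.05; the M6pr call in WM-2474 was lost under library totals, at 0.10 (adjusted p = 0.141). The adaptor Gga2 had -0.42 ± 0.06 and -0.35 ± 0.06, and the sorting receptor Sorl1 -1.06 ± 0.22 and -1.40 ± 0.22, each past the test in both treatments. Of 18 tested genes for relatives of Tfeb and their control by mTORC1, 1 rose and 2 fell in DMSO and 1 rose and 1 fell in WM-2474 (1 and 10, and 1 and 7, under library totals). Rheb, the small GTPase that activates mTORC1, rose by 0.27 ± 0.05 and 0.32 ± 0.05. Of 22 autophagy genes 6 rose and 2 fell in each treatment (2 and 6 in DMSO, 1 and 4 in WM-2474 under library totals). Wipi1, which acts in autophagosome formation, rose by 0.32 ± 0.05 and 0.28 ± 0.05, and the mitophagy receptor Bnip3 had -0.51 ± 0.06 and -0.30 ± 0.06, both past the test. Of 4 tested inhibitors of cysteine proteases, 3 rose in each treatment (3 rose and 1 fell under library totals). Cst3, the secreted inhibitor cystatin C, rose by 0.29 ± 0.06 and 0.34 ± 0.06, and Ctla2a by 1.06 ± 0.19 and 0.97 ± 0.19, though Ctla2a and Ctla2b are close copies between which counts may be split.

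At 96 h no difference between WM-2474 and DMSO was detectable in any lysosomal gene. By edgeR 0 of 36 passed, as did 0 (0.00%) of all 13499 genes, and DESeq2 and limma-voom also called 0 of the lysosomal genes. These fits, and the intervals below, do not pair libraries by replicate number. With only the 96 h libraries paired so, 3 of 13377 genes passed by edgeR, and 0 lysosomal genes. The log2 differences ran from -0.10 to 0.13, and the 95% intervals of all 36 lay between -0.38 and 0.34. At an unadjusted p under 0.05 there was 1 gene, Ids, the iduronate sulfatase, with 61.4, 61.1 and 59.8 CPM in DMSO and 66.1, 64.7 and 66.8 in WM-2474. Its difference was 0.12 ± 0.05 (adjusted p = 1). It was also the only 1 of the 36 whose groups did not overlap (2.78%), against 7.45% of all genes, 3.62% higher and 3.83% lower. Glb1 differed by 0.01 ± 0.06 with a 95% interval of -0.11 to 0.14, Ctsk by -0.04 ± 0.06 with -0.16 to 0.08, and Hexa by -0.03 ± 0.04 with -0.12 to 0.06.

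At 240 h 0 of the 36 passed by edgeR, DESeq2 or limma-voom, against 0.0296% of all genes by edgeR. DESeq2 gave an adjusted p to only 3292 of the 13499 genes here, so genes outside these could not pass by it. The differences ran from -0.20 to 0.16, and the intervals from -0.57 to 0.32. Both of the wide bounds belonged to the low genes Tfeb and Idua. Glb1 differed by 0.02 ± 0.06 (95% interval -0.10 to 0.14), Hexa by 0.02 ± 0.04 (-0.07 to 0.10) and Ctsk by -0.04 ± 0.06 (-0.16 to 0.07). At an unadjusted p under 0.05 there were 4 genes. Cd63 differed by 0.12 ± 0.04 (adjusted p = 0.474), Gaa by 0.11 ± 0.04 (adjusted p = 0.521), Ctsa by 0.11 ± 0.05 (adjusted p = 0.571) and Smpd1 by 0.16 ± 0.07 (adjusted p = 0.543).

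Small differences at 240 h leaned to higher values in WM-2474, and their median moved with 1 library. Of the 36 genes 27 lay above 0 with a median of 0.02, against 0.00 for all genes. For 8 genes (22.2%) all WM-2474 libraries were above all DMSO libraries, and for 0 below, where 7.58% and 6.72% of all genes did so. They were Gaa, Gusb, Arsa, Smpd1, Ctsa, Ctsz, Lamp1 and Cd63. WM-2474 240 h replicate 1 was the highest of its group for 23 of the 36 genes, while in the other 11 libraries that number was 5 to 19. Without it the median was 0.00 with 19 of 36 above 0, and 11 genes lay wholly above and 4 wholly below DMSO, against 12.6% and 10.5% of all genes. Leaving out DMSO 240 h replicates 1 and 2 leaves 1 DMSO library. The median was then 0.03, and 15 genes lay wholly above and 3 wholly below it, against 21.6% and 21.4% of all genes.

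**Figure D5:**
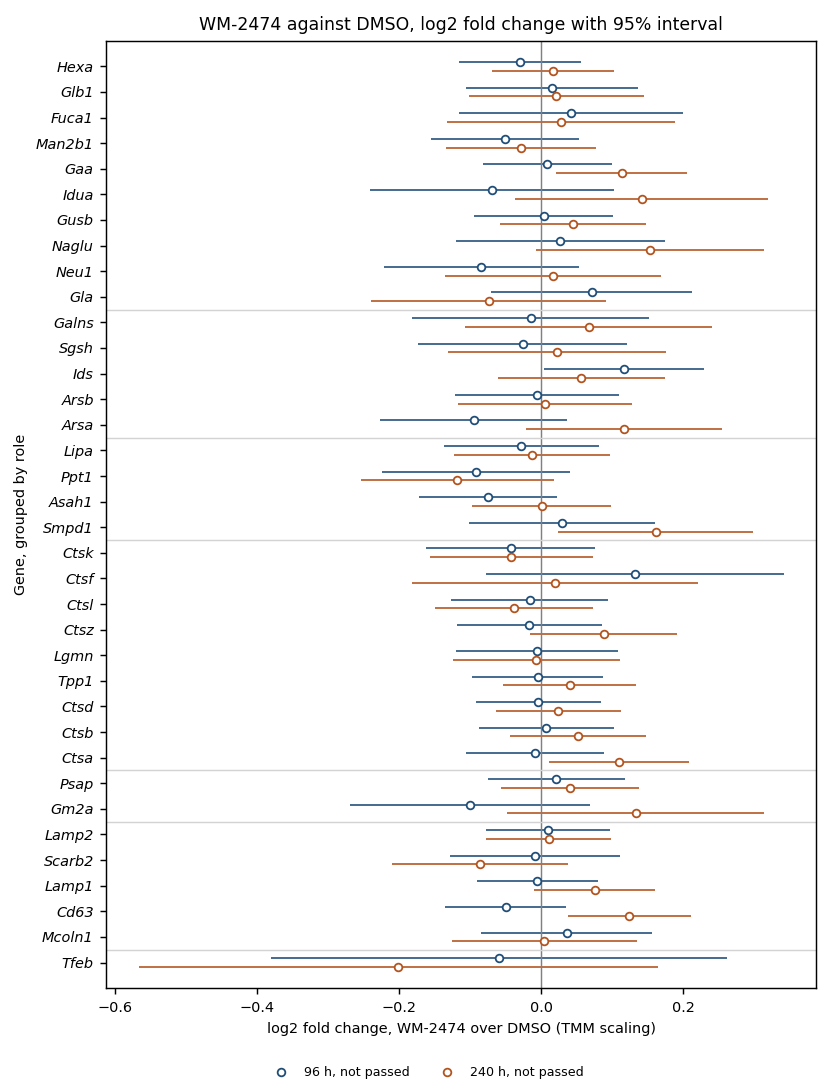
Log2 difference of WM-2474 from DMSO with its 95% interval for 36 lysosomal genes, at 96 h in blue and at 240 h in orange (TMM scaling). All points are open because 0 genes passed at either time; the points lie between -0.20 and 0.16.

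The change over time did not differ detectably between the treatments. For the difference of the 2 time changes 0 of 36 genes passed, as did 0 of all genes, with 0 of the 36 by DESeq2 and limma-voom. At an unadjusted p under 0.05 there were 2, Cd63 (0.17 ± 0.06) and Arsa (0.21 ± 0.09). The median difference was 0.03, and -0.00 without WM-2474 240 h replicate 1. For the genes that rose most over time, the difference was 0.00 ± 0.08 for Ctsk (95% interval -0.16 to 0.17), -0.11 ± 0.14 for Ctsf (-0.40 to 0.18) and 0.05 ± 0.06 for Hexa (-0.08 to 0.17). For Glb1 it was 0.01 ± 0.08, with an interval of -0.17 to 0.18, and for Gla -0.14 ± 0.11, with -0.36 to 0.07.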

How the data were processed

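RNA was sequenced from 12 fibroblast libraries, 3 for each of 4 groups, made with a stranded mRNA kit, per the labels' protocols. The deposited values are raw gene counts, which the authors made with featureCounts on mm10, per the submitters' processing notes; the annotation, the strand setting and the treatment of multiply mapped reads are not given in the sources used here. Of 27179 table entries, 874 without a gene identifier (0.547% to 0.648% of counts) were left out, and 96.1% of the other 26305 had a symbol in the reference table. The 37 genes, the pathway lists and the markers were chosen with earlier results of these data known.

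Genes were filtered with filterByExpr and tested with edgeR 4.0.16 (TMM scaling, robust quasi-likelihood test, 12 libraries in 1 fit, Benjamini-Hochberg over 13499 genes, threshold 0.05, R 4.3.3). The procedure was also run on simulated counts with a common dispersion and changes balanced between directions. That simulation does not cover a shift of scaling between the times. SE is the log2 fold change divided by the root of its F statistic. CPM use TMM-scaled library sizes, RPKM also the exon length in the table. TMM factors were 1.04 to 1.05 at 96 h and 0.943 to 0.967 at 240 h. The biological coefficient of variation was 5.22%. No 2 replicates of the same group were identical, and they differed beyond sampling noise (chi-square per degree of freedom 2.02 to 4.99). Alternatives were RLE factors, library totals, other filters, DESeq2 1.42.0, limma 3.58.1 (voom), the replicate number as a block, only the libraries compared, and each library left out. Same-numbered WM-2474 and DMSO libraries deviated together at 96 h (correlations 0.301, 0.235 and 0.191), so the numbers pair them there, from the data and not from the labels; with the replicate block 0 lysosomal genes passed at 96 h, as without it. All 37 genes could be named, and of each other list the 2 genes with the smallest p in each direction; marker genes at or near 0 were named after their values were seen.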

Additional observations from a re-analysis of the deposited data

How the results depend on the processing

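The counts of lysosomal genes called over time stayed within 1.5 times of the values above under every alternative except library totals. Scaling by library totals gave 4 higher and 12 lower in DMSO and 5 higher and 10 lower in WM-2474. Of all 13499 genes it gave 1190 higher and 4381 lower in DMSO and 1097 and 4391 in WM-2474. Their median log2 changes were -0.13 and -0.14. Library totals also turned the sign of Asah1 (-0.0068), Gaa (-0.061) and Lamp1 (-0.035) in DMSO and of Lamp2 (-0.0055) and Arsa (-0.091) in WM-2474. Leaving out each library in turn gave 7 to 11 higher and 4 to 6 lower in DMSO, 12 to 15 higher and 3 to 5 lower in WM-2474, and 0 in each comparison of WM-2474 with DMSO. Of signs near 0, 2 turned: Cd63 in DMSO was 0.0037 without DMSO 240 h replicate 1, and Arsa in WM-2474 was -0.023 without WM-2474 240 h replicate 1 (over all libraries left out, -0.039 to 0.0037 and -0.023 to 0.086); the cause was not tested. With the replicate number as a block over all libraries, 10 were higher and 6 lower in DMSO and 14 and 4 in WM-2474, and 0 passed between treatments. Across times same-numbered libraries had correlations of -0.0078 to 0.132, and at 240 h of 0.0397 to 0.114, all below those at 96 h. Whether the numbers pair libraries there is uncertain. With only the 240 h libraries compared, the block moved calls between treatments over all genes from 15 higher and 0 lower to 79 and 12. With only the 96 h libraries it moved them from 0 higher and 0 lower to 3 and 0. Among lysosomal genes 0 were called either way at either time. With only the libraries compared over time, the block gave 12 and 6 in DMSO and 12 and 3 in WM-2474. Among values of single genes, 766 kept their direction and side of the threshold, 54 lost the threshold, 9 passed it and 7 turned. Depth limits the low genes: the interval of Tfeb spanned -0.50 to 0.16 in DMSO.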
